A study of Mus musculus with 30 samples.

Results

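Alpha-macroglobulins and inter-alpha inhibitors are 2 families of plasma protease inhibitors that the liver secretes. The 10 genes described here are 5 alpha-macroglobulin genes (*Pzp*, *Mug1*, *Mug2*, *A2m* and *A2ml1*) and 5 inter-alpha inhibitor genes (*Itih1*, *Itih2*, *Itih3*, *Itih4* and *Ambp*), out of 54429 rows of a time course table and 55471 rows of a genotype table. They were chosen by family name from a list drawn when results of these data were known, with the genotype difference of *A2ml1* among them. The KO over WT values are therefore given below as a description, without p-values.

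Liver poly(A) RNA was sequenced in 30 libraries from male mice, and the study mentions several mice per group in its genotype analysis without saying whether a library pooled them. The time course held 18 libraries of wild-type C57BL/6J mice on chow in a 12/12 light/dark cycle, 1 library for each of 3 ages (2, 6 and 12 months) at each of 6 zeitgeber times (ZT1, 5, 9, 13, 17 and 21, in hours after lights on). The genotype cohort held 12 libraries, 1 KO and 1 WT library at each of 2 times at 2, 6 and 12 months. KO mice carried floxed *Egr-1* alleles and *Alb-Cre*, in which the albumin promoter drives Cre in hepatocytes, so that other liver cells kept the gene. WT mice were littermate controls, and both came from lines backcrossed to C57BL/6J. The times were named H and L after the highest and lowest *Egr-1* protein at each age (ZT13 and ZT17 at 2 months, ZT9 and ZT21 at 6 months, ZT5 and ZT21 at 12 months), so that age and time of day cannot be told apart in its comparisons with 2 months, while the L libraries of 6 and 12 months share ZT21. Total counts ran from 13375377 to 16557378 per library in the time course and from 13747706 to 21748956 in the genotype cohort. Each age group of the time course is made of different times of day, so its range of values includes the daily cycle. Its age tests held zeitgeber time as a block. Their p-values measure the spread between libraries that is left after the daily change shared by the ages.

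Alpha-macroglobulins are large proteins that trap proteases: a protease cuts their bait region, and the molecule closes around it, after which the complex is cleared through the receptor *Lrp1*. Murinoglobulins, the products of *Mug1* and *Mug2*, are rodent members that act as monomers, *Pzp* is the main plasma form in mouse, and *A2ml1* is best known from skin. Inter-alpha inhibitors consist of heavy chains, encoded by *Itih* genes, joined through a sugar chain to bikunin, a protease inhibitor cut from the *Ambp* product together with alpha-1-microglobulin. Their heavy chains are transferred to hyaluronan in the matrix, and *Itih4* encodes a related protein that is known as an acute-phase reactant. In the annotation of GRCm38 the alpha-macroglobulin genes lie on chromosome 6, with *A2m* (121635376 to 121679227), *Mug1* (121838541 to 121889057) and *Mug2* (122006761 to 122085965) on the plus strand and *Pzp* (128483567 to 128526720) and *A2ml1* (128539821 to 128581608) on the minus strand. *Itih4* (30886476 to 30902353, plus strand), *Itih3* (30908572 to 30923760, minus strand) and *Itih1* (30929180 to 30943289, minus strand) are neighbours on chromosome 14. *Itih2* lies on chromosome 2 (10094593 to 10131396, minus strand) and *Ambp* on chromosome 4 (63143275 to 63154799, minus strand).

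The 250 bases before the start site were matched by symbol for 9 of the 10 genes in RefSeq promoters of GRCm38.p6, not including *A2m*. The promoters of *Itih4*, which rose most at 6 months among genes expressed at every age, of *Mug1*, which fell, of *A2ml1*, which was lowest in KO relative to WT, and of its neighbour *Pzp* are shown 5′ to 3′ on the strand of the gene, at chr14:30886226-30886475, chr6:121838291-121838540, chr6:128581607-128581856 and chr6:128526721-128526970. Capitals mark matches to 6 motifs, searched on both strands: TTCNNNGAA for STAT factors in *Itih4* and TATAAA, the TATA box, in *A2ml1*.
Itih4: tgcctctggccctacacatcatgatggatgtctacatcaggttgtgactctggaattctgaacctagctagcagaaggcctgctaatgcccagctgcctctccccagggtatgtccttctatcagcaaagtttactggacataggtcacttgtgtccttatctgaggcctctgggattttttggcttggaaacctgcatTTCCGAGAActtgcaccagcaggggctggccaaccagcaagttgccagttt
Mug1: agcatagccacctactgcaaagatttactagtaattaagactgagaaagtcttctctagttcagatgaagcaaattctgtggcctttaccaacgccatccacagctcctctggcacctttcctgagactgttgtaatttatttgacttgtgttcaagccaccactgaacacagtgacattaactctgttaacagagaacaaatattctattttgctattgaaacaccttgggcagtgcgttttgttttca
A2ml1: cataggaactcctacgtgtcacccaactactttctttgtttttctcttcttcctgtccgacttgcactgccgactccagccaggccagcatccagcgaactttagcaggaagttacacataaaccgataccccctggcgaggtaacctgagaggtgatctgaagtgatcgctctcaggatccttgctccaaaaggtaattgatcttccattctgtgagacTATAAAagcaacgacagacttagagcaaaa
Pzp: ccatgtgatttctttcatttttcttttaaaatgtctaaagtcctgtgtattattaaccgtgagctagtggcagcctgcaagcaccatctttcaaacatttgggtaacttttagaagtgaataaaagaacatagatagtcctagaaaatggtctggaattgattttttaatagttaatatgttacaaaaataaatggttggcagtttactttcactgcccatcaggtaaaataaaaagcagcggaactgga
TTCNNNGAA occurred in 7.02% of 32851 promoters of this length and in 1 of the 9 matched here. TATAAA occurred in 12.4% of all and again in 1 of the 9. The third motif with a match was TTGCNNAA, for CEBP factors, in *Itih2* (9.56% of all promoters). None of the 9 windows held GCGNGGGCG, the Egr motif (4.70% of all), CACGTG, the E-box (6.02%), or TTANGTAA, the D-box (2.06%). Each match is a description of letters in this window.

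Per length, *Ambp* was the most abundant of the 10 at all 3 ages of the time course, with 892 ± 96.0 FPKM at 2 months, 1795 ± 374 at 6 months and 1177 ± 263 at 12 months (SD, n = 6 libraries). FPKM is CPM on library totals divided by annotated exon length in kilobases. At 2 months *Mug1* (422 ± 67.1 FPKM) and *Pzp* (407 ± 69.0) came next and differed by less than their spread. They were followed by *Itih4* (197 ± 17.9) and *Itih2* (177 ± 29.0), a pair that again lay within its spread, and by *Itih3* (114 ± 14.2), *Itih1* (97.7 ± 17.8) and *Mug2* (83.4 ± 19.5), whose steps in FPKM were smaller than the SD of *Itih1*. The spread includes the daily cycle, which genes of the same library can share. Library by library, *Itih4* was above *Itih2* and *Itih3* above *Itih1* in every 2-month library. *A2ml1* (1.19 ± 0.151 FPKM) was far below these, and *A2m* was at 0.030 ± 0.026. At 6 months the order was *Ambp*, *Itih4* (755 ± 369.6 FPKM), *Pzp* (547 ± 157), *Itih3* (316 ± 133), *Mug1* (226 ± 31.5), *Itih2* (167 ± 46.4), *Itih1* (100.3 ± 18.05), *Mug2* (53.7 ± 8.11), *A2m* (4.88 ± 10.97) and *A2ml1* (2.94 ± 0.790). The means of the neighbours *Itih4* and *Pzp*, *Itih3* and *Mug1*, and *A2m* and *A2ml1* did not differ beyond their spread there. Within libraries, *Itih4* was above *Pzp* in every 6-month library. At 12 months *Pzp* (363 ± 63.0 FPKM) was second, and the means of *Itih4* (265 ± 78.7) and *Mug1* (238 ± 43.8) did not differ beyond their spread. Nor did those of *Mug1* and *Itih2* (206 ± 25.8), although *Mug1* was above *Itih2* in every 12-month library. *Itih3* (124 ± 38.8), *Itih1* (97.8 ± 23.9) and *Mug2* (77.5 ± 14.5) formed a lower run of overlapping levels. *A2ml1* (2.36 ± 0.439 FPKM) and *A2m* (0.00157 ± 0.00384) came last. The 10 genes together took 0.734% to 1.02% of all counts at 2 months, 0.949% to 1.86% at 6 months and 0.625% to 1.05% at 12 months. The defining hepatocyte markers were abundant in all libraries, with *Alb* between 26339 and 108131 CPM (counts scaled to a common library total with TMM factors, used for all levels below unless FPKM is named).

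Reads can be misassigned between the murinoglobulin genes. Of the 50-base windows of the annotated *Mug2* transcripts, 50.5% also occurred in another gene, most often in the pseudogene *Mug-ps1* (37.1%), and for *Mug1* 26.5% were shared, most often with *Mug2* (16.7%). With 100-base windows the shares were 27.1% for *Mug2* and 6.28% for *Mug1*. *Pzp*, *A2m*, *Itih1*, *Itih2*, *Itih3* and *Ambp* shared none at either length, and the shares of *A2ml1* and *Itih4* were 0.103% and 0.185% at 50 bases. Values of *Mug2* in particular are therefore uncertain.

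**Figure D1:**
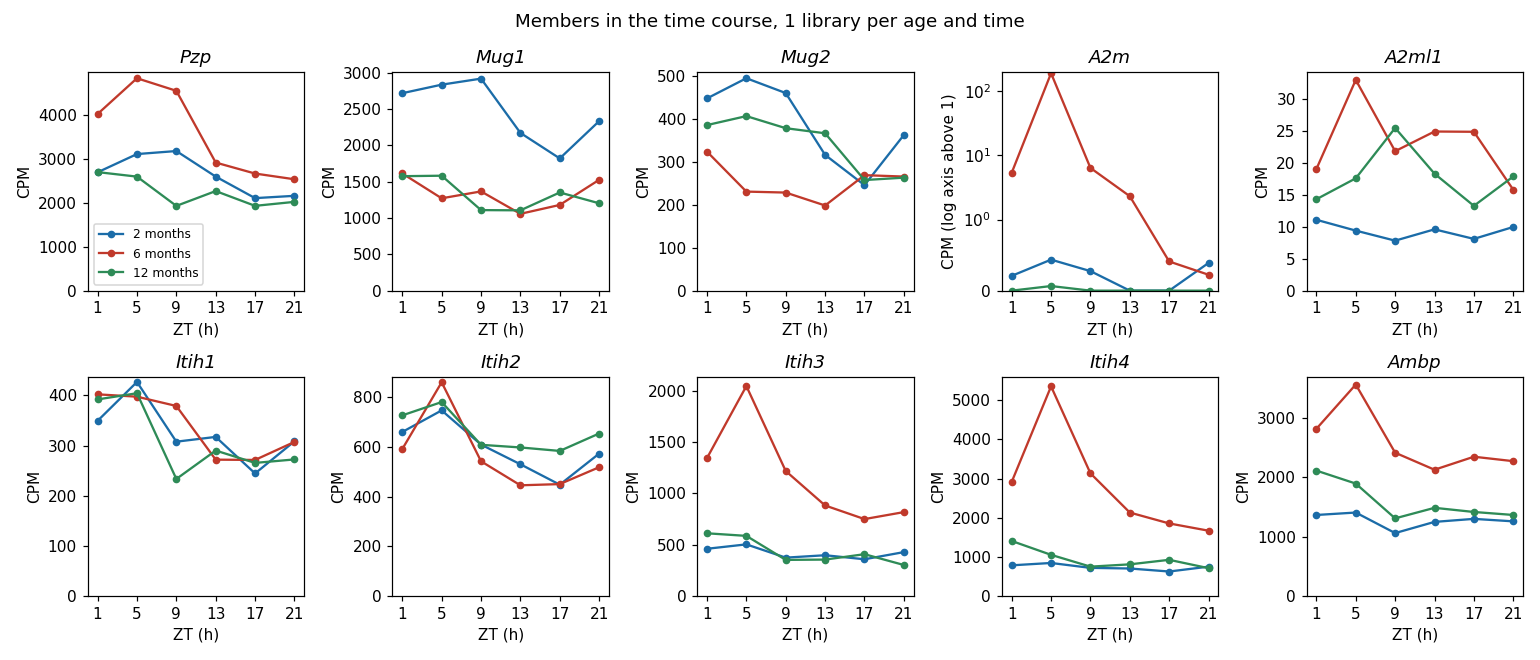
Expression of the 10 genes in the time course, in CPM against zeitgeber time in hours, with 1 point per library and a line per age; the *A2m* panel has a log axis above 1 CPM. *Itih3*, *Itih4* and *Ambp* lie higher at 6 months than at 2 and 12 months at every time, *Mug1* lies lower at 6 and 12 months than at 2 months, and *A2m* reaches 193 CPM at ZT5 of 6 months.

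The first comparison asks how the genes differed between 6 and 2 months over the day. All 10 genes passed the filter on low counts, *A2m* through the 6-month libraries alone, so its test had its direction fixed in advance and it is left out of the counts here and below. Of the other 9 genes 7 passed the test at 6 months, 5 of them higher (*Itih4*, *Itih3*, *Ambp*, *A2ml1* and *Pzp*) and 2 lower (*Mug1* and *Mug2*), while *Itih1* and *Itih2* did not pass. Over all 13895 genes tested 11.5% passed, 5.53% higher and 6.01% lower. The median log2 fold change was 0.40 over the 9 genes and 0.0019 over all genes. Adjusted p-values are from edgeR's quasi-likelihood test with zeitgeber time as a block and Benjamini-Hochberg adjustment over all genes.

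*Itih4* had the largest change of the inter-alpha genes. Its CPM ran from 623 over a median of 732 to 842 at 2 months, from 1667 over 2523 to 5358 at 6 months and from 709 over 865 to 1404 at 12 months. No 6-month library overlapped with another age, and the highest value was at ZT5. The log2 fold change of 6 over 2 months was 1.82 ± 0.18 (SE; adjusted p = 0.000154; higher at 6 of 6 times), and that of 12 over 6 months was -1.50 ± 0.19 (adjusted p = 0.00102; lower at 6 of 6 times). At 12 over 2 months the difference was 0.33 ± 0.12 (adjusted p = 0.0843; higher at 5 of 6 times).

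*Itih3*, the heavy chain gene next to *Itih4*, followed the same pattern. Its CPM ran from 357 over a median of 411 to 502 at 2 months, from 748 over 1048 to 2043 at 6 months and from 301 over 379.8 to 609.6 at 12 months. The 6-month libraries again stood clear of both other ages. The log2 fold change was 1.39 ± 0.15 for 6 over 2 months (adjusted p = 0.000283), -1.38 ± 0.14 for 12 over 6 months (adjusted p = 0.000342) and 0.02 ± 0.12 for 12 over 2 months (adjusted p = 0.941).

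*Ambp*, the precursor of bikunin, ran from 1058 over a median of 1277 to 1404 CPM at 2 months, from 2126 over 2378 to 3560 at 6 months and from 1306 over 1449 to 2111 at 12 months. The 6-month range did not overlap with either other age. The log2 fold change was 0.99 ± 0.11 for 6 over 2 months (adjusted p = 0.000358) and -0.68 ± 0.12 for 12 over 6 months (adjusted p = 0.00668). For 12 over 2 months it was 0.32 ± 0.09 (adjusted p = 0.0396; higher at 6 of 6 times), a call that was lost when either library at ZT1, ZT5, ZT9 or ZT13 was left out (lowest value 0.25).

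The remaining heavy chains moved little with age. *Itih1* ran from 244 to 427 CPM at 2 months, from 271 to 402 at 6 months and from 233 to 405 at 12 months, and its log2 fold change of 6 over 2 months was 0.04 ± 0.09 (adjusted p = 0.836). *Itih2* ran from 448 to 747 CPM at 2 months, from 445 to 859.8 at 6 months and from 583 to 780.2 at 12 months, with a log2 fold change of -0.10 ± 0.09 (adjusted p = 0.537). All 3 ages overlapped for both genes. At 12 over 2 months *Itih1* gave -0.08 ± 0.09 (adjusted p = 0.626) and *Itih2* 0.16 ± 0.08 (adjusted p = 0.217). The ratio of *Itih4* to *Itih1* per length ran from 1.76 to 2.28 at 2 months, from 4.84 to 12.0 at 6 months and from 2.32 to 3.20 at 12 months, and that of *Itih3* to *Itih2* from 0.557 to 0.726, from 1.44 to 2.17 and from 0.419 to 0.764.

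Among the alpha-macroglobulins, *Mug1* fell. Its CPM ran from 1821 over a median of 2527 to 2920 at 2 months, from 1058 over 1319 to 1614 at 6 months and from 1106 over 1278 to 1583 at 12 months, so that every 2-month library was above every library of the other ages. The log2 fold change was -0.89 ± 0.11 for 6 over 2 months (adjusted p = 0.000798) and -0.89 ± 0.11 for 12 over 2 months (adjusted p = 0.000264), lower at 6 of 6 times in both. For 12 over 6 months it was 0.0034 ± 0.13 (adjusted p = 0.989).

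*A2ml1* rose at both later ages, from a low level. Its CPM ran from 7.83 over a median of 9.50 to 11.1 at 2 months (114 to 165 counts), from 15.8 over 23.4 to 33.0 at 6 months (212 to 438 counts) and from 13.3 over 17.7 to 25.5 at 12 months (225 to 329 counts). Neither later age overlapped with 2 months. The log2 fold change was 1.28 ± 0.16 for 6 over 2 months (adjusted p = 0.000768) and 0.91 ± 0.14 for 12 over 2 months (adjusted p = 0.00123), higher at 6 of 6 times in both, and -0.36 ± 0.16 for 12 over 6 months (adjusted p = 0.17).

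*Pzp* ran from 2107 over a median of 2646 to 3179 CPM at 2 months, from 2536 over 3469 to 4836 at 6 months and from 1930 over 2144 to 2699 at 12 months, and all ages overlapped. It was higher at 6 than at 2 months by a log2 fold change of 0.40 ± 0.10 (adjusted p = 0.0335; higher at 6 of 6 times) and lower at 12 than at 6 months by -0.62 ± 0.15 (adjusted p = 0.0231), and 12 over 2 months gave -0.23 ± 0.10 (adjusted p = 0.152). Over the 12 fits without 1 library, the call of 6 over 2 months was lost in 11 (log2 fold change 0.35 to 0.45) and that of 12 over 6 months in 5 (-0.70 to -0.51). *Mug2* gave -0.61 ± 0.15 for 6 over 2 months (adjusted p = 0.0226; lower at 5 of 6 times), a call lost in 8 of 12 such fits, with values from -0.76 to -0.51. Per length, *Pzp* made up 41.0% to 47.5% of the alpha-macroglobulin FPKM at 2 months, 54.9% to 71.4% at 6 months and 50.7% to 56.3% at 12 months.

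*A2m* was nearly silent apart from the 6-month libraries. Its counts at 2 months were 3, 7, 4, 0, 0 and 5 from ZT1 to ZT21. At 6 months they were 71, 2560, 89, 36, 6 and 3, and at 12 months a count of 1 at ZT5 with 0 at the other times. The library at ZT5 of 6 months thus held 2560 of 2765 counts of that age. In CPM of the summed counts, *A2m* was at 0.211 at 2 months, 32.9 at 6 months and 0.0107 at 12 months (exact Poisson 95% intervals 0.127 to 0.330, 31.7 to 34.1 and 2.7e-04 to 0.0595, for counting error only). The ratio of 6 over 2 months was 156 (95% interval 99.5 to 259) and without ZT5 13.7 (8.55 to 23.2), while that of 6 over 12 months was 3081 (553 to 121749) and without ZT5 271 (48.2 to 10767). In the genotype cohort *A2m* had 14 counts over 12 libraries, at most 5 in a library, and did not pass the filter, nor did it at 12 over 2 months.

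Acute-phase genes moved with the 6-month libraries. Of 25 listed genes of the acute-phase and interleukin-6 response, 22 were higher and 0 lower at 6 than at 2 months, with a median log2 fold change of 1.59. Over all genes 5.53% were higher and 6.01% lower. The list was drawn with results of these data known, so the count is a description and nothing is read from it. *Saa2* (8.39 ± 0.44, adjusted p = 1.69e-06), *Saa3* (6.29 ± 0.37, adjusted p = 4.13e-06) and *Orm2* (5.69 ± 0.38, adjusted p = 1.26e-05) had the smallest p. *Saa1*, serum amyloid A, ran from 80.3 to 329.9 CPM at 2 months, from 5246 to 22661 at 6 months, where ZT5 was again the highest, and from 24.9 to 1541 at 12 months. The summed level of 7 neutrophil markers was 2.23 to 5.42 CPM at 2 months, 21.2 to 140.3 at 6 months and 4.08 to 10.9 at 12 months. The defining markers *Ly6g* and *Mpo* were at 0 in 12 and 14 of the 18 libraries. All 3 markers that passed the filter on low counts were higher at 6 than at 2 months. Only 2 passed that filter at 12 over 2 months. The other passed here through the 6-month libraries, so its direction was fixed in advance. Of the other marker lists, 2 of 9 stellate cell and fibroblast markers and 2 of 6 hepatocyte markers were lower at 6 months (hepatocyte sum 85429 to 98663 CPM at 2 and 48784 to 101772 at 6 months), and 3 of 6 Kupffer cell, 2 of 6 endothelial and 3 of 4 cholangiocyte markers were higher. In the 6-month libraries of the genotype cohort *Saa1* was between 48.9 and 610.1 CPM. The part of this response in the results of the 6-month time course was not tested, and in bulk liver a change in cell number and a change in RNA per cell cannot be told apart.

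**Figure D2:**
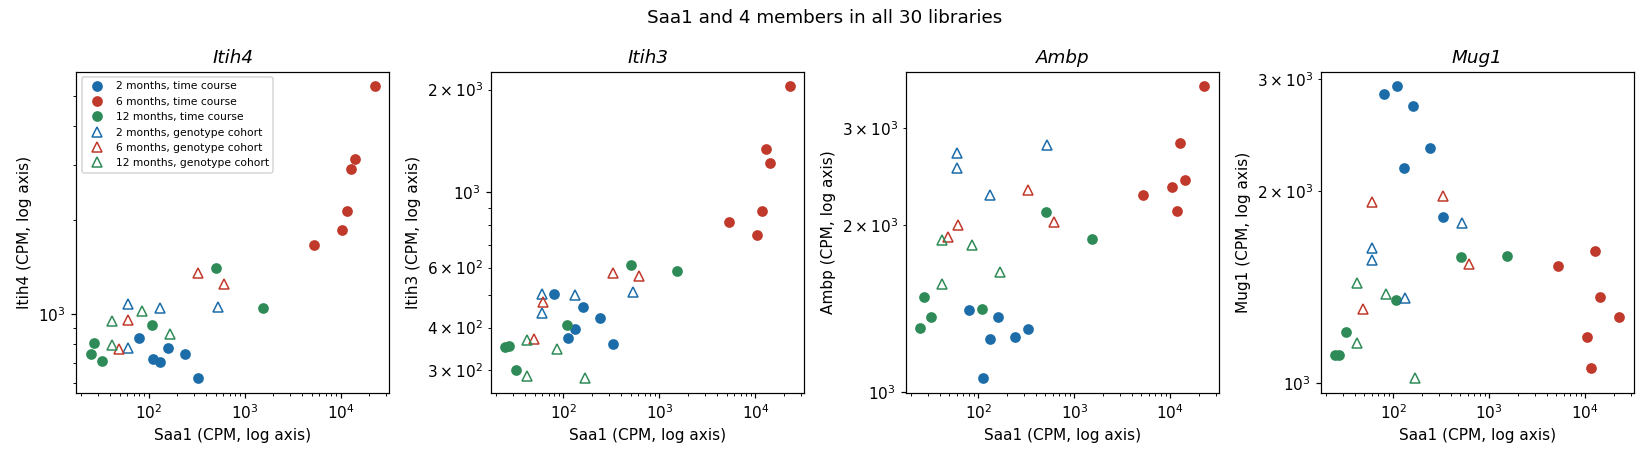
CPM of *Itih4*, *Itih3*, *Ambp* and *Mug1* against CPM of *Saa1* in all 30 libraries, both on log axes, with colours for age, filled circles for the time course and open triangles for the genotype cohort. The 6 time course libraries of 6 months stand apart at 5246 CPM of *Saa1* and above, with *Itih4* at 1667 to 5358 CPM.

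At 12 over 2 months 3 of the 9 genes tested passed (*Mug1* lower, *A2ml1* and *Ambp* higher), where 14.5% of 14001 genes passed. At 12 over 6 months 4 of the 9 genes other than *A2m* passed, all lower (*Itih3*, *Itih4*, *Ambp* and *Pzp*), where 10.2% of 14047 genes passed and 5.00% were lower. These comparisons share libraries with that of 6 over 2 months. Of 6 B and plasma cell markers 4 were higher at 12 than at 2 months, with a summed level of 58.3 to 518 CPM against 14.02 to 29.1. Both neutrophil markers tested and the adipocyte marker tested were also higher, with 3 of 9 stellate cell and fibroblast markers higher and 2 lower, 1 of 6 hepatocyte markers higher and 1 lower, and 1 endothelial and 1 cholangiocyte marker lower. The part of these cells was not tested.

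The genotype cohort allowed the same ages to be compared in other animals, with genotype as a block. At 6 over 2 months 1 of the 9 genes tested passed, *Ambp*, which was lower by a log2 fold change of -0.31 ± 0.08 (adjusted p = 0.0406), where 5.30% of 14389 genes passed. *Itih4* gave 0.14 ± 0.15 (adjusted p = 0.683), *Itih3* 0.03 ± 0.12 (adjusted p = 0.925), *Mug1* 0.08 ± 0.09 (adjusted p = 0.675) and *A2ml1* 0.15 ± 0.26 (adjusted p = 0.817). These differences are small beside those of the time course, and the difference between cohorts was not tested. The call of *Ambp* was lost in 11 of 12 fits without 1 library (log2 fold change -0.35 to -0.26) and with no block for genotype (edgeR, adjusted p = 0.119).

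At 12 over 2 months 4 genes passed and all were lower (8.32% of all genes were lower, 15.4% passed): *Ambp* by -0.56 ± 0.08 (adjusted p = 0.000826), *Itih3* by -0.60 ± 0.12 (adjusted p = 0.00644), *Itih1* by -0.32 ± 0.07 (adjusted p = 0.00913) and *Mug1* by -0.34 ± 0.09 (adjusted p = 0.0241). With no block for genotype, *Itih1* (edgeR, adjusted p = 0.268) and *Mug1* (adjusted p = 0.184) did not pass. In the same comparison 3 of 6 hepatocyte markers were lower (summed 57381 to 84670 CPM at 2 months and 45784 to 81818 at 12 months), 5 of 6 B and plasma cell markers were higher (25.9 to 60.8 and 123 to 247 CPM), as were 2 of 9 stellate cell and fibroblast markers and the adipocyte marker tested, and 1 endothelial marker was lower. Their part in the result was not tested. *Mug1* was thus lower at 12 than at 2 months in both cohorts, while *Ambp* was higher in the time course and lower here. *A2ml1*, also called as higher in the time course, was not called here (0.31 ± 0.26, edgeR, adjusted p = 0.466). *Ambp* ran from 2269 to 2792 CPM in the 4 libraries of 2 months and from 1563 to 1881 in those of 12 months, with no overlap. *Mug1* lost its call without the KO library at H of 2 months or of 12 months, or without the WT library at H of 12 months (log2 fold change -0.28, -0.29 and -0.33). At 12 over 6 months only *Itih3* passed among the 9 (-0.63 ± 0.12, adjusted p = 0.0355), where 0.945% of all genes passed, and its call was lost in 10 of 12 fits without 1 library and with no block for genotype (edgeR, adjusted p = 0.0845). At L, where both ages were sampled at ZT21, *Itih3* was at 579.6 CPM at 6 months and 367 at 12 months in WT, and at 369 and 289 in KO.

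**Figure D3:**
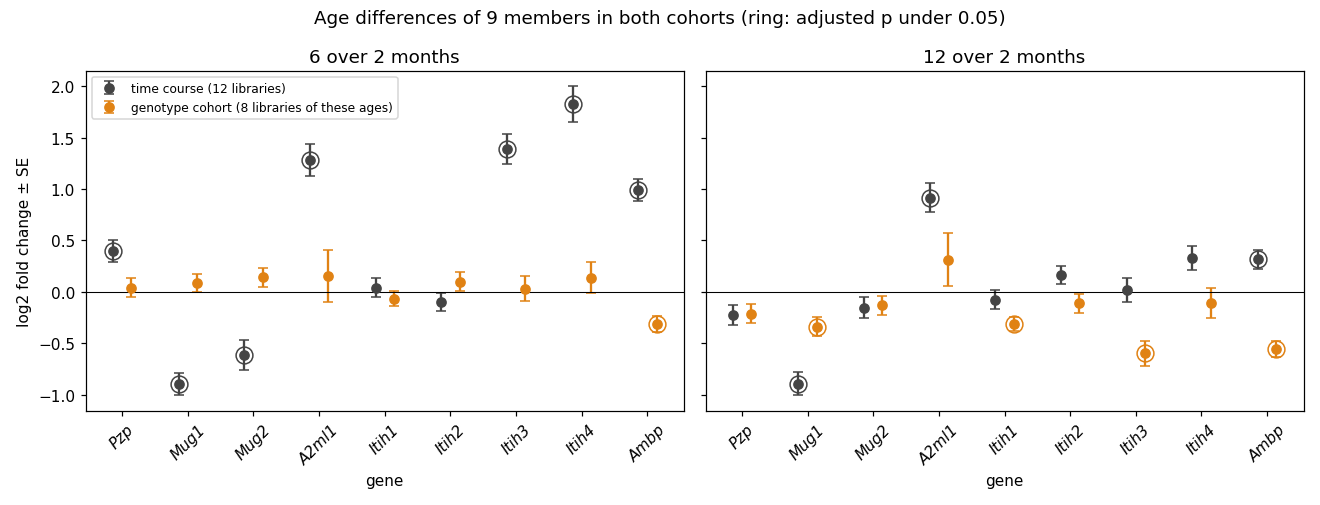
Log2 fold change with its SE for 9 genes (*A2m* left out), at 6 over 2 months on the left and 12 over 2 months on the right, in the time course (grey) and the genotype cohort (orange), with rings around values of adjusted p under 0.05. At 6 over 2 months *Itih4* stands at 1.82 in the time course and at 0.14 in the genotype cohort.

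The genotype comparison asks how these genes differed between libraries labelled KO and WT for hepatocyte *Egr-1*. *Egr1* itself, the check of the labels, was lower in KO than in WT in 4 of 6 pairs. The pairs at 2 months L (1.45 CPM in WT and 7.43 in KO) and 12 months H (5.83 and 6.11) did not show it, so KO below means the libraries labelled KO. All 9 genes tested had a log2 fold change of KO over WT below 0, and 5 of them (*A2ml1*, *Mug2*, *Itih1*, *Itih2* and *Pzp*) passed the threshold, against 1.36% of 14843 genes passing and 0.721% passing as lower. The median log2 fold change was -0.43 over the 9 genes and -0.0106 over all. Since the list was drawn with a genotype result in view, nothing is read from this count.

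*A2ml1* was at 20.3, 21.5, 28.7, 17.98, 15.05 and 22.3 CPM in WT (2 months H and L, 6 months H and L, 12 months H and L) and at 5.73, 4.04, 5.81, 4.92, 6.50 and 10.8 CPM in the matched KO libraries. Every KO library was below every WT library, at 63 to 163 counts in KO and 289 to 528 in WT. The WT level was 2.06 to 5.32 times the KO level of its pair, and the log2 fold change was -1.77 ± 0.18. In the 4 pairs with lower *Egr1* in KO it was -1.76. The 2 pairs without lower *Egr1* in KO had log2 ratios of -2.41 (2 months L) and -1.21 (12 months H).

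Its neighbour *Pzp* was at 2893, 2507, 3039, 3118, 2306 and 2459 CPM in WT and at 2130, 2287, 2170, 1883, 1732 and 1912 in KO in the same order. The 2 groups did not overlap, by a narrow margin, and the log2 fold change was -0.43 ± 0.08. *Mug2* ran from 381 to 501 CPM in WT and from 258 to 332 in KO, also without overlap (-0.56 ± 0.07), and *Mug1* from 1379 to 1970 and from 1019 to 1563, with overlap (-0.36 ± 0.08). Both were lower in 6 of 6 pairs.

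Of the inter-alpha genes, *Itih1* was at 499.5, 480.5, 446, 478, 421 and 383 CPM in WT and at 356, 372, 345, 353, 283 and 276 in KO. Its differences were even across pairs, with log2 ratios from -0.57 to -0.37, and the fitted value was -0.46 ± 0.06. *Itih2* ran from 610.4 to 812 CPM in WT and from 448 to 571 in KO, without overlap (-0.46 ± 0.08; lower in 6 of 6 pairs). *Itih3* (-0.21 ± 0.10), *Itih4* (-0.24 ± 0.13) and *Ambp* (-0.19 ± 0.07) overlapped between genotypes and were each lower in 5 of 6 pairs. For all 3 the exception was the pair at 6 months H, where *Itih4* was at 958 CPM in WT and 1248 in KO, *Itih3* at 475 and 567, and *Ambp* at 2003 and 2027. In that KO library *Saa1* was at 610.1 CPM, against 60.8 in its WT partner. *Itih4* (1354 CPM in WT and 775 in KO) and *Itih3* (579.6 and 369) fell most in the pair at 6 months L. *Saa1* was at 331 CPM in WT and 48.9 in KO there. At 2 months L *Saa1* was at 525 and 133 CPM, with *Itih4* at 1054 and 1049. The part of *Saa1* was not tested.

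The summed level of 6 hepatocyte markers was 74615 to 92262 CPM in WT and 45784 to 61882 in KO, and *Alb*, the largest part, was at 52419 to 66783 and 26339 to 36312 CPM. Of those 6 markers only *Alb* passed the test, and their median log2 fold change was -0.14. Of the other marker lists, 1 stellate cell and fibroblast and 1 B and plasma cell marker were higher, and 1 cholangiocyte marker was lower. The part of these cells was not tested. Scaling by library totals alone moved the median log2 fold change of all genes to 0.114 and the 107 lower calls to 64, beside 358 higher in place of 95. The 9 genes remained below 0 under it, with *A2ml1* at -1.64, *Itih1* at -0.33 and *Ambp* at -0.06. The genotype difference was not called as different between ages for any of the 9 genes (smallest unadjusted p = 0.0769, *A2ml1*; adjusted p = 1 for all), in a test by edgeR in which 0% of genes passed and 532 had an unadjusted p under 0.05.

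**Figure D4:**
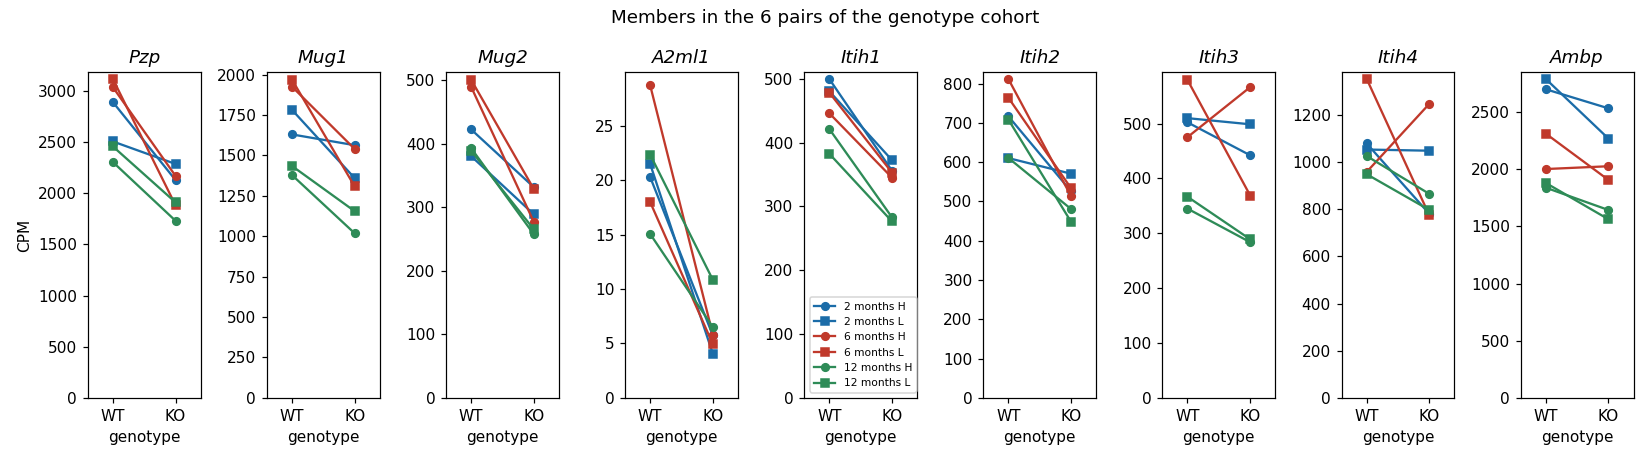
CPM of 9 genes in the 6 matched pairs of the genotype cohort, with WT on the left and KO on the right of each panel, a line per pair, colours for age, circles for H and squares for L. *A2ml1* runs from 15.05 to 28.7 CPM in WT and from 4.04 to 10.8 in KO, and the lines of *Itih3*, *Itih4* and *Ambp* at 6 months H rise.

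Daily rhythm was tested in the time course with a 24-h cosine shared by the 3 ages. Of the 9 genes other than *A2m* 6 passed, where 15.8% of 13733 genes passed: *Itih2* (adjusted p = 0.00199), *Pzp* (adjusted p = 0.0044), *Itih1* (adjusted p = 0.0046), *Itih3* (adjusted p = 0.00737), *Itih4* (adjusted p = 0.0323) and *Mug1* (adjusted p = 0.0461), by edgeR's quasi-likelihood test. Their fitted peaks lay in the first part of the light phase, between ZT2.66 for *Mug1* and ZT5.72 for *Pzp*, and their log2 amplitudes (mean to peak) between 0.23 for *Mug1* and 0.41 for *Itih3*. *Mug2* (adjusted p = 0.0632), *Ambp* (adjusted p = 0.0737) and *A2ml1* (adjusted p = 0.341) did not pass. *Mug1* lost its call in 13 of 18 fits without 1 library and *Itih4* in 4. For *A2m*, whose counts lay almost all at 6 months, the fitted amplitude went from 4.50 to 2.10 without the 6-month library at ZT5.

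Within an age, only 6 libraries carry the rhythm. *Mug2* passed at 2 months (adjusted p = 0.0246, peak at ZT4.58), where 4.72% of 14268 genes passed. At 6 months *Itih4* (adjusted p = 0.00828), *Pzp* (adjusted p = 0.0122), *Itih3* (adjusted p = 0.0124) and *Itih2* (adjusted p = 0.0411) passed (4.62% of genes). Their peaks ran from ZT4.14 to ZT5.91, close to ZT5, the time of the highest *Saa1*. Times were not replicated within an age, so a daily peak and a high acute-phase signal in the ZT5 library cannot be told apart. The 6-month rhythm without that library was not tested. None of the 9 passed at 12 months (3.53% of genes, 504 in all, and 3 of the 9 at an unadjusted p under 0.05). The rhythm was not called as different between ages for any of the 9 (0.0911% of genes passed; smallest adjusted p = 0.244, *Mug2*). In an exact permutation test of the ranks against cosine orders, whose smallest p with 6 values is 0.0333, that value was reached by *Mug2* and *Itih2* at 2 months (8.68% of 12470 genes), by *Itih3* at 6 months (8.20%) and by *Mug2* at 12 months (6.44%).

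Genes of the same pathways were counted from lists. The lists were drawn with results of these data known, so these counts are a description and nothing is read from them. Over all genes 5.53% were higher and 6.01% lower at 6 over 2 months of the time course. Of the thioester relatives of alpha-2-macroglobulin outside the 10 genes, 5 of 8 were tested at 6 over 2 months, and 4 were higher and 1 lower, among them the complement components *C3* (0.76 ± 0.12, adjusted p = 0.00374) and *C4a* (0.89 ± 0.17, adjusted p = 0.00879) and the pseudogene *Mug-ps1* (-0.66 ± 0.10, adjusted p = 0.00245), which shares sequence with *Mug2*. Of 6 hyaluronan-handling genes and *Itih* relatives tested, the hyaluronan receptor *Cd44* was higher (0.47 ± 0.11, adjusted p = 0.024) and *Itih5* lower (-0.51 ± 0.15, adjusted p = 0.0497). Neither *Lrp1* nor its chaperone *Lrpap1* passed in any of the age or genotype comparisons counted. Of 24 plasma proteases and other inhibitors 3 were higher and 3 lower, with the coagulation protease *F11* (-0.82 ± 0.08, adjusted p = 0.00012) and the serpins *Serpina3m* (1.198 ± 0.186, adjusted p = 0.0031) and *Serpina3n* (2.06 ± 0.34, adjusted p = 0.00464) at the smallest p. The medians of these lists were 0.43, -0.0173, 0.0293 and -0.0809, beside 0.0019 over all genes. In the genotype cohort *Mug-ps1* was higher at 6 than at 2 months (1.01 ± 0.25, adjusted p = 0.0404), opposite to the time course.

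At 12 over 2 months 8 of the 24 proteases and inhibitors were lower and 0 higher in the time course, where 959 of all 14001 genes were lower and 1074 higher. *F11* (-1.17 ± 0.09, adjusted p = 7.26e-06), *Serpina3k* (-0.87 ± 0.09, adjusted p = 6.09e-05) and *Serpina3n* (-0.81 ± 0.11, adjusted p = 0.000621) had the smallest p. As these lists too were drawn with results known, nothing is read from the counts of this paragraph. In the genotype cohort 11 of 23 were lower and 0 higher, where 8.32% of all genes were lower, again with *F11* (-0.89 ± 0.11, adjusted p = 0.000337) and *Serpina3k* (-0.99 ± 0.15, adjusted p = 0.00134). *Hapln1*, a link protein of hyaluronan, was the only hyaluronan gene called in the time course (-4.04 ± 0.58, adjusted p = 0.000701), and *Cemip2* (-0.68 ± 0.14, adjusted p = 0.00674), *Hyal1* (-0.57 ± 0.15, adjusted p = 0.0267) and *Itih5* (-0.74 ± 0.23, adjusted p = 0.0454) were lower in the genotype cohort. Of the acute-phase genes 3 were higher and 3 lower at 12 over 2 months in the time course, unlike the 22 higher at 6 months.

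In KO over WT, 5 of the 24 proteases and inhibitors passed as lower and 0 as higher, where 0.721% of all genes passed as lower. Among them were *Serpinf2*, the plasmin inhibitor (-0.43 ± 0.07), *Serpind1* (-0.38 ± 0.06) and *F11* (-0.44 ± 0.08). Of 25 acute-phase genes 3 were lower, the fibrinogen chains *Fgb* (-0.48 ± 0.07), *Fga* (-0.39 ± 0.08) and *Fgg* (-0.41 ± 0.08), and 1 was higher. The lists were drawn with results of these data known, so these values are a description and nothing is read from the counts. None of the thioester relatives, hyaluronan genes or receptor genes passed.

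Over the 18 libraries of the time course, the genes whose log2 CPM followed each member most closely are given as Pearson's r, which describes libraries that share the 6-month acute-phase signal. *Itih4* was most like *Hp* (r = 0.97), *Hpx* (0.97) and *Tmem176a* (0.97), *Itih3* most like *Hpx* (0.97), *Prg4* (0.96) and *Stat3* (0.96), and *Ambp* most like *Tmem176b* (0.97), *Tmem176a* (0.95) and *Atp11a* (0.94). *Hp* and *Hpx* encode haptoglobin and hemopexin. *Pzp* was most like *C4b* (0.92), *Ptpn3* (0.91) and *Cp* (0.91), *A2m* most like *Tacc2* (0.96), *Il1rn* (0.95) and *Gm10309* (0.95), and *Itih1* most like *Pcdh1* (0.93), *Serpinf2* (0.89) and *Tfr2* (0.88). *Mug1* was most like *Ces3a* (0.93), *Cyp2a12* (0.91) and *Parp12* (0.89), and *A2ml1* most like *Asns* (0.89), *Snx7* (0.88) and *Gnai1* (0.88). Over the 12 libraries of the genotype cohort, r is given for the same partners in the same order. It was 0.71, 0.71 and 0.28 for *Itih4*, 0.85, 0.16 and 0.56 for *Itih3*, and 0.14, -0.16 and -0.43 for *Ambp*. For *Pzp* it was 0.28, 0.83 and 0.47, for *A2m*, with few counts there, -0.025, -0.28 and -0.029, and for *Itih1* 0.58, 0.75 and 0.75. For *Mug1* it was 0.81, 0.82 and -0.67, and for *A2ml1* -0.71, 0.20 and -0.22. Between members, *Mug1* and *A2ml1* had r = -0.84 in the time course and 0.57 in the genotype cohort, and *Itih3* and *Itih4* had 0.98 and 0.73.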

How the data were processed

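Poly(A) RNA of mouse liver was sequenced paired-end (Illumina). Per the labels and methods of the study, reads were trimmed with fastp, aligned to mm10 with HISAT2 and counted with featureCounts. Versions and annotation were not given in the sources used here. The deposited values are raw counts per gene, made by the authors with 1 table per cohort and named by symbol in the time course and by Ensembl ID in the genotype cohort. Tables were never combined in a test. No column of sample values was left unused.

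Counts were fitted with edgeR 4.0.16 (quasi-likelihood test, TMM factors, filterByExpr, R 4.3.3), with p-values adjusted by Benjamini-Hochberg across the whole table at a threshold of 0.05. CPM used TMM factors. FPKM used library totals and exon lengths of GENCODE M21. The genotype model held the 6 pairs of equal age and time as a block, age models of the time course held zeitgeber time, and rhythm models a 24-h cosine. Alternatives were DESeq2 1.42.0, other scalings, no filter, no block, other subsets and leaving out each library or pair. The scripts were tested on simulated counts. Of the rows, 53851 of 54429 in the time course and 55230 of 55471 in the genotype cohort matched a gene of the annotation.

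The members and lists were chosen with earlier results of these data known. All 10 members are named, with up to 3 genes of the smallest p per list and the 3 most similar genes for 8 members (mean of at least 1 CPM, log2 of CPM plus 0.5). At 13375377 to 21748956 counts per library, counting error is small for all members but *A2m* and *A2ml1*. *A2m* passed the filter through the 6-month libraries alone and is described by its counts. *A2ml1* was lowest in the KO library at 2 months L, where 63 counts gave 4.04 CPM (exact Poisson 95% interval 3.10 to 5.16). Intervals cover counting error only.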

Additional observations from a re-analysis of the deposited data

Results flagged for a closer look

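In 5 of 50 groups of 6 libraries, *A2m* included, the highest value stood apart from the others by more than Dixon's criterion allows. For independent replicates chance gives about 1 in 20 groups. Each group here mixes times of day or ages, so that rate does not apply and nothing is read from the count. *A2m* at ZT5 of 6 months was at 193 CPM, with the next library at 6.39. *A2m* at ZT5 of 12 months was at 0.0646 CPM, a count of 1 among libraries at 0, so that its flag was fixed in advance. *Itih2* at ZT5 of 6 months was at 859.8 CPM, with the next at 591. *A2ml1* in the KO library at 12 months L was at 10.8 CPM, with the next at 6.50, and *Itih4* in the WT library at 6 months L was at 1354 CPM, with the next at 1080.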

How the results depend on the processing

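The results of the 9 members other than *A2m* were refitted under the alternatives. In the age and rhythm tests 1094 values kept their direction and side of the threshold, 99 lost the call, 20 gained it and 29 changed sign. In KO over WT, where members have no test, 134 values moved by less than the spread between pairs and 1 by more (*Itih1*, -0.33 with library totals), and no side of a threshold was assessed. The counts of genes called moved more. At 6 over 2 months (1604 genes) 289 passed with the study's added fold threshold, at 12 over 2 months (2033) 312 and at 12 over 6 months (1438) 328. At 12 over 6 months 2184 passed with no filter and 2252 with all 18 libraries in 1 fit. With library totals alone the higher and lower calls were 1465 and 576 at 12 over 2 months, where TMM gave 1074 and 959, and 1099 and 475 at 12 over 6 months, where TMM gave 736 and 702. For KO over WT (202 genes) library totals gave 422, no filter 636 and DESeq2 430, while the pairs with lower *Egr1* in KO gave 9, the pairs at H 2 and the pairs at L 54. In the genotype cohort, 6 over 2 months (763) gave 1475 with no filter, 1221 with DESeq2, and 0 in WT or in KO libraries alone, which hold 2 libraries per age (edgeR, with 1826 and 1584 genes at an unadjusted p under 0.05). There 12 over 2 months (2212) gave 72 in WT alone and 309 in KO alone, and 12 over 6 months (136) gave 986 with no filter, 512 with DESeq2, 2 in WT alone and 1 in KO alone. The shared rhythm (2167) gave 0 genes with a 12-h period (edgeR, with 422 at an unadjusted p under 0.05) and 18 at the smallest exact permutation p in all ages, and that test gave 1082, 1022 and 803 genes at 2, 6 and 12 months. Ranked by CPM with no length, 4 of the 10 members kept their rank. The causes were not tested.

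The labels carry no replicate numbers, so the blocks were zeitgeber time, pair or genotype. With no replicate block, 980 genes passed at 6 over 2 months, 898 at 12 over 2 months, 21 in KO over WT and 34 at 12 over 6 months of the genotype cohort, where *A2ml1* went to -0.057. *Pzp* at 6 over 2 months (adjusted p = 0.168) and *Ambp* at 12 over 2 months (adjusted p = 0.142) lost their edgeR calls without it. So did *Ambp* at 6 over 2 months, *Mug1* and *Itih1* at 12 over 2 months and *Itih3* at 12 over 6 months in the genotype cohort. Pairing by animal was not given.

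Without 1 library or pair the counts ran from 886 (6-month ZT9 left out) to 1270 at 6 over 2 months, from 1385 to 1685 at 12 over 2 months, from 636 (6-month ZT9) to 1497 at 12 over 6 months and from 45 to 137 in KO over WT (lowest without the pair at 12 months L). In the genotype cohort they ran from 261 (WT at 2 months H) to 730, from 1438 (WT at 12 months H) to 2251 and from 1 (KO at 6 months H) to 250 in the same order of ages, and for the shared rhythm from 1764 to 2472. Changes of sign were limited to values that were not called. Without 1 library *Itih1* ran from -0.012 to 0.10 at 6 over 2 months, *Itih3* from -0.068 to 0.13 at 12 over 2 months and *Mug1* from -0.078 to 0.071 at 12 over 6 months. In the genotype cohort at 6 over 2 months *Pzp* ran from -0.022 to 0.10, *A2ml1* from -0.090 to 0.24, *Itih3* from -0.10 to 0.13 and *Itih4* from -0.0045 to 0.25, and at 12 over 6 months *A2ml1* ran from -0.10 to 0.39. In KO libraries alone, 6 over 2 months gave -0.10 for *Pzp*, -0.017 for *Mug1*, -0.014 for *Mug2* and -0.046 for *Itih2*. In WT libraries alone, 12 over 2 months gave -0.15 for *A2ml1* and 0.011 for *Itih2*, and 12 over 6 months gave -0.30 for *A2ml1*. Among the members depth limits *A2m* most, at 19 and 1 counts at 2 and 12 months of the time course and 14 in the genotype cohort.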
